A study of Saccharomyces cerevisiae with 22 samples.

Results

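The 42 transcripts described here encode the DNA replication machinery of budding yeast and the core ring of cohesin. They were chosen by gene name, with earlier results of these data known. Counts set beside the share of all genes therefore describe the set and are no independent support. By the gene symbols that the array annotation gives to the probe sets, all 42 were found among the 5449 Saccharomyces cerevisiae genes measured. Each had 1 probe set of its own, and each lay above the background level of 4.62 log2 units on all 22 arrays, with mean levels between 8.49 and 12.1.

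The study followed strain 4741, grown in rich medium (YPD) at 30 °C to mid-log phase, through a mild first stress and then through a later condition. Total RNA was measured on Affymetrix arrays, 1 array for each condition and time. The untreated group had 2 arrays (a and b). Heat at 40 °C and osmotic stress with 0.8 M KCl were each sampled at 30 and 45 min, and 0.66 mM hydrogen peroxide given directly (naive peroxide) at 15, 30, 45 and 90 min. After 45 min in heat or in KCl, cells were moved either to 0.66 mM peroxide (heat-primed or KCl-primed, 15, 30, 45 and 90 min) or back to rich medium (15 and 45 min). No stressed condition was repeated at a time, so the spread in the tests below is that between times or between histories. In fits that hold the untreated arrays, the difference within the untreated pair is part of that spread. Where time is a term, the spread is how far the differences between groups varied over the times. Whether the untreated pair came from separate cultures is not given in the sources used here. The p-values therefore measure only the spread between these arrays, which may be technical.

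Replication starts at origins marked by the origin recognition complex (ORC). In G1, Cdc6 and ORC load the ring-shaped MCM helicase, and at the start of S phase Cdc45, the GINS complex and Dpb11 help to turn that ring into a moving helicase. Polymerase alpha-primase lays down primers, polymerases epsilon and delta extend them with the sliding clamp, and cohesin holds the new sister chromatids together. In budding yeast many of these genes, among them those of the polymerases, the clamp, RPA and the cohesin subunit Mcd1, are transcribed in late G1, while several MCM genes and CDC6 are transcribed from late M to early G1.

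Array medians over all genes lay between 10.16 and 10.22 log2 units, so the arrays were on 1 scale as deposited. The difference between the untreated arrays had an SD of 0.142 over all genes and 0.108 over the 42 transcripts, with the largest, 0.36, at ORC6. Genes of a cells lay between 11.5 and 13.29 on the untreated arrays and those of alpha cells between 3.78 and 8.57. Unless a level is named, values below are log2 ratios to the mean of the untreated arrays (1 unit is a 2-fold change), and differences are log2 differences ± the limma standard error.

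**Figure D1:**
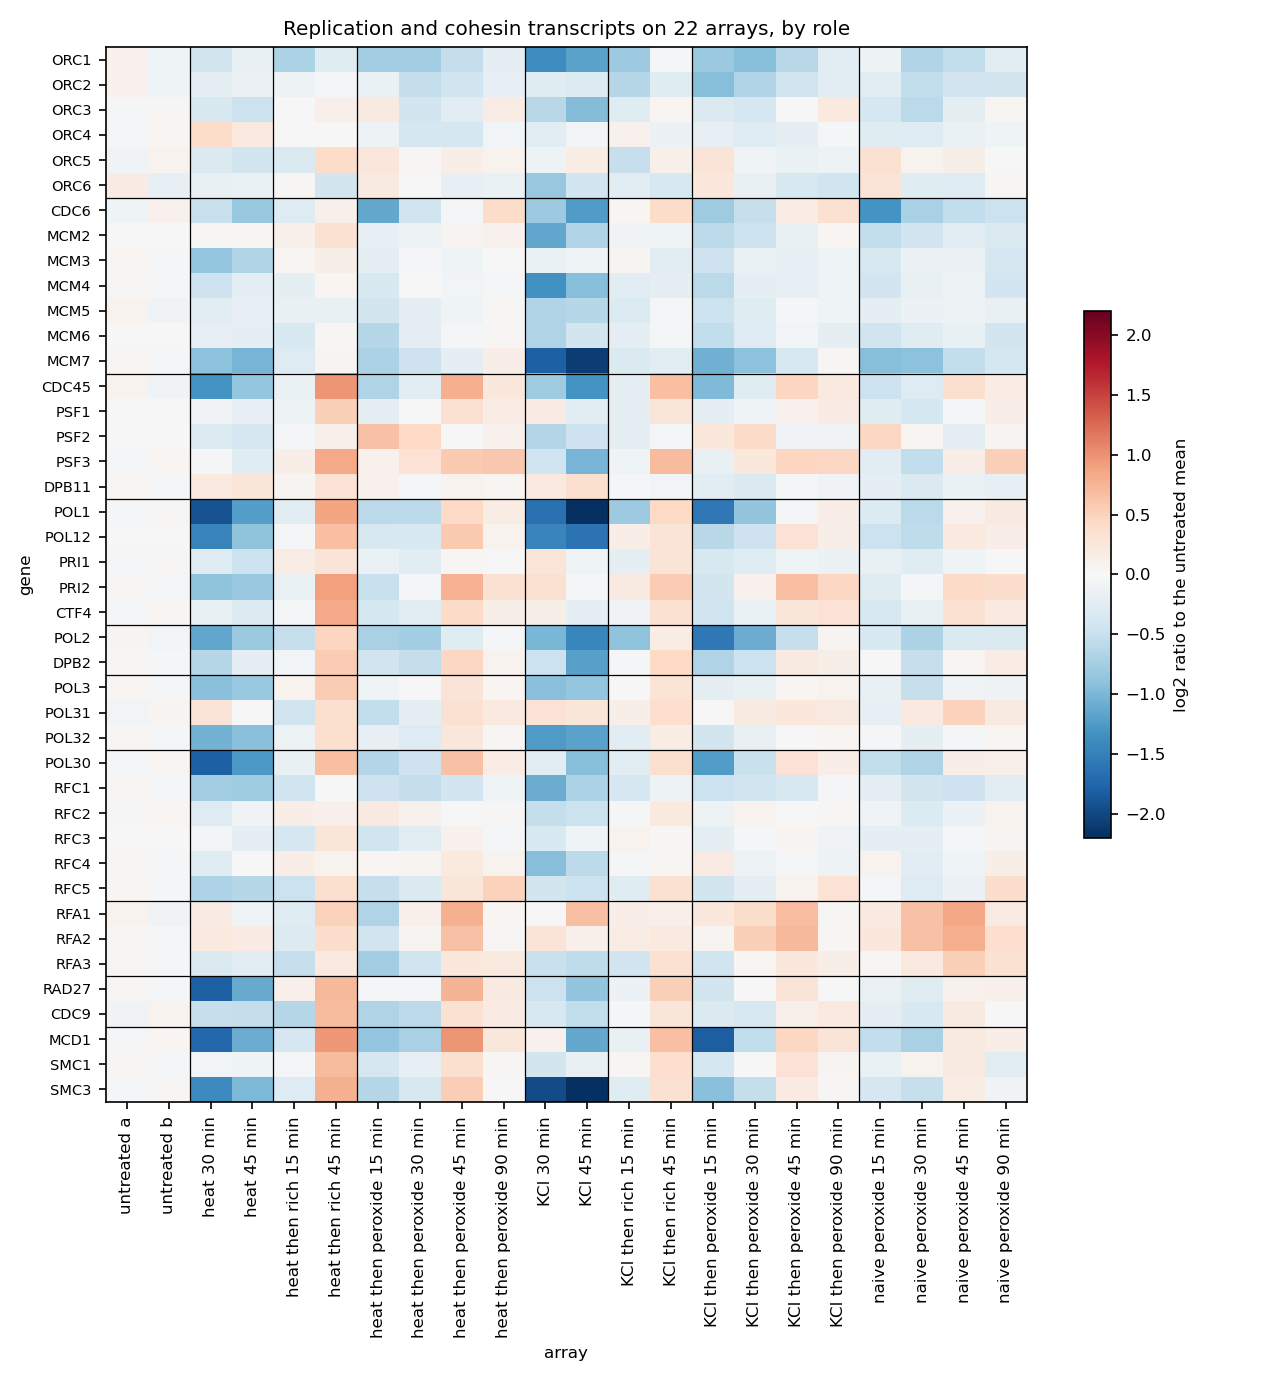
Log2 ratio of each of the 42 transcripts (rows, grouped by role from ORC at the top to cohesin at the bottom) to the untreated mean on each of the 22 arrays (columns, grouped by history). Blue is lower and red higher than untreated. The deepest blue lies in the heat and KCl columns, with POL1 and SMC3 reaching -2.20 at 45 min of KCl, and the column of 45 min in rich medium after heat has the highest median, 0.36.

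The 42 transcripts differed widely in how far they moved over the 22 arrays. POL1, the catalytic subunit of polymerase alpha, covered the widest span, 3.06 log2 units from -2.20 to 0.86. SMC3 and MCD1 of the cohesin ring followed with spans of 2.99 and 2.79. At the other end, DPB11 spanned 0.67 and MCM6 0.69. No transcript reached 2-fold above the untreated mean on any array, while up to 12 of 42 lay at least 2-fold below it (KCl at 45 min). On that array 13.9% of all genes were at least 2-fold lower and 17.3% at least 2-fold higher than untreated.

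In heat, transcripts of the polymerases, the sliding clamp, the helicase and cohesin were among those that fell. Of the 42, 16 fell and 0 rose against untreated cells (adjusted p under 0.05 over all 5449 genes), beside 22.4% of all genes that fell and 27.5% that rose. Their median difference was -0.35, where the median of all genes was 0.07. The arrays hold bulk cultures, so fewer cells carrying a transcript and less of it per cell cannot be told apart.

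POL1 stood at -1.92 and -1.21 at 30 and 45 min of heat, against -0.03 and 0.03 on the untreated arrays. Both heat values lay far below the untreated pair, and the difference was -1.57 ± 0.32 (2 arrays per group, adjusted p = 0.0062). POL30, which encodes the sliding clamp PCNA, stood at -1.79 and -1.27 and differed by -1.53 ± 0.33 (adjusted p = 0.00784). It was the brightest of the transcripts that fell, at levels of 12.33 and 12.43 on the untreated arrays. RAD27, the flap nuclease that trims Okazaki fragments, read -1.80 and -1.11 (-1.46 ± 0.26, adjusted p = 0.00382), and MCD1, the cohesin subunit that closes the ring, read -1.72 and -1.09 (-1.41 ± 0.45, adjusted p = 0.0338). In all 4 the lower array was the one at 30 min.

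By role, 3 of 5 polymerase alpha-primase transcripts (POL1, POL12 and PRI2), 2 of 3 for polymerase delta (POL3 and POL32) and 1 of 2 for polymerase epsilon (POL2) fell in heat, with median differences of -0.86, -0.87 and -0.70 over each role. Among the clamp and clamp loader transcripts POL30, RFC1 and RFC5 fell. SMC3 fell beside MCD1 by 1.19, whereas SMC1 gave -0.08, and CDC45 was the only 1 of 5 helicase activation transcripts to fall (-1.08). Of the 7 transcripts for helicase loading, MCM7 (-0.96), MCM3 (-0.76) and CDC6 (-0.66) fell, and MCM2 gave 0.04. The 6 ORC transcripts ranged from -0.40 (ORC3) to 0.31 (ORC4) with 0 calls, and the RPA transcripts from -0.28 (RFA3) to 0.20 (RFA2) with 0 calls. Without untreated array a, 8 of the 42 were called instead of 16.

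KCl lowered transcripts of the helicase ring, of origin recognition and of the polymerases. Of the 42, 23 fell and 0 rose, beside 26% of all genes that fell and 30.2% that rose. The median difference was -0.57 where that of all genes was 0.03.

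SMC3, an ATPase arm of the cohesin ring, stood at -1.97 and -2.20 at 30 and 45 min of KCl, against -0.03 and 0.03 in the untreated pair (-2.08 ± 0.25, adjusted p = 0.000445). MCM7, a subunit of the helicase ring, stood at -1.80 and -2.07 against 0.05 and -0.05 (-1.93 ± 0.17, adjusted p = 0.000135). For both genes the KCl arrays were far below the untreated ones. POL1 read -1.64 and -2.20 (-1.92 ± 0.32, adjusted p = 0.00197), and POL12, the regulatory subunit of the same polymerase, read -1.46 and -1.62 (-1.54 ± 0.29, adjusted p = 0.00325). ORC1, the largest ORC subunit, read -1.37 and -1.18 on the KCl arrays, against -0.40 and -0.16 in heat.

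Of the 7 helicase loading transcripts, 6 fell in KCl, all but MCM3 (-0.12), with a median over the role of -0.91. ORC1, ORC3 and ORC6, 3 of 6 ORC transcripts, fell, as did both of polymerase epsilon, POL2 by 1.22 and DPB2 by 0.83. POL3 and POL32 of polymerase delta, RFC1, RFC2, RFC4 and RFC5 of the clamp loader, CDC45, the GINS subunit PSF2 and the RPA subunit RFA3 were the others that fell. The primase subunits did not follow POL1 and POL12: PRI1 gave 0.08 and PRI2 0.16, and neither was called. MCD1 was far apart between the times, 0.09 at 30 min and -1.12 at 45 min, and was not called (-0.52 ± 0.45). POL30 read -0.25 and -0.93 and was not called either. Without untreated array a, 13 of 42 were called, and without untreated array b, 15.

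**Figure D2:**
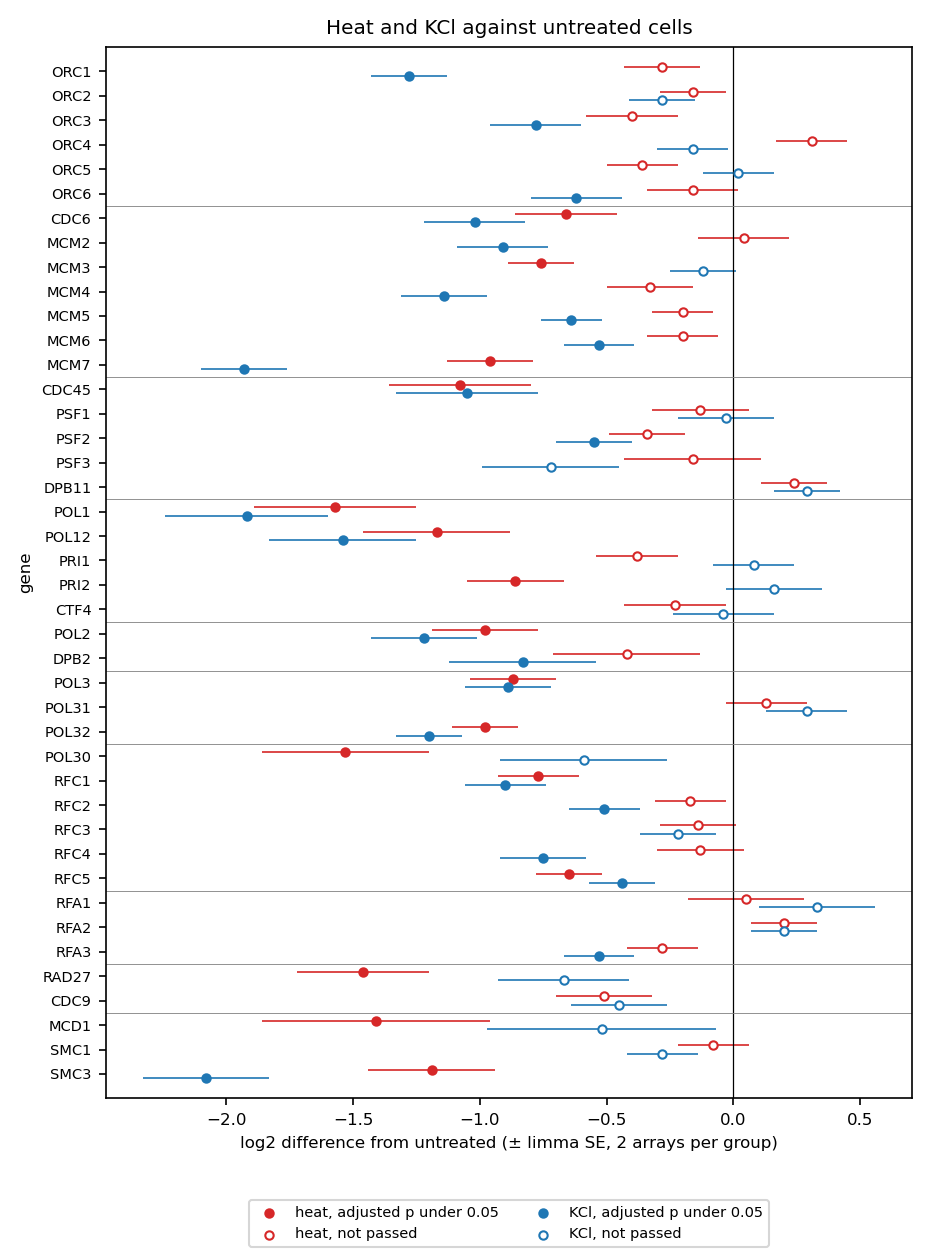
Log2 difference from untreated cells for each of the 42 transcripts in heat (red) and KCl (blue), with limma standard errors from 2 arrays per group. Filled points passed an adjusted p of 0.05, which was the case for 16 transcripts in heat and 23 in KCl, all of them to the left of 0.

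The stresses were then set against each other, a contrast added to those planned. Heat gave higher values than KCl for 8 of the 42 and lower values for 2, beside 15.4% and 15.2% of all genes. The share of the 42 higher in heat was little above that of all genes, and the share lower in heat was below it. ORC1 differed by 0.99 ± 0.15 (adjusted p = 0.00503), MCM7 by 0.97 ± 0.17 (adjusted p = 0.00702), MCM2 by 0.94 ± 0.18 (adjusted p = 0.00871) and SMC3 by 0.90 ± 0.25 (adjusted p = 0.0316). MCM4, RFC4, ORC4 and MCM5 were the others higher in heat, so 4 MCM subunits and 2 ORC subunits were on that side. PRI2, the large primase subunit, was lower in heat, at -0.89 and -0.83 against 0.33 and -0.02 in KCl (-1.02 ± 0.19, adjusted p = 0.00914), and so was MCM3 (-0.64 ± 0.13, adjusted p = 0.0114). Of the MCM ring, MCM3 was the lower in heat in this fit, while MCM2, MCM4, MCM5 and MCM7 were the lower in KCl. Without untreated array a, untreated array b or the heat array at 45 min, 6 of 42 were called in place of 10. With time as a block 8 were called, and with the untreated arrays left out of that fit 3 (ORC1, MCM2 and MCM7). MCM3, the subunit on the other side, was not called in that last fit (-0.64 ± 0.19, adjusted p = 0.0745).

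Some measures of the RNA, and those of the stress, moved with these groups. All 18 general stress markers rose in both, with median differences of 4.54 in heat and 4.36 in KCl. The 3' minus 5' difference of the SPT15 control probe sets was 1.71 and 1.62 on the heat arrays where the other arrays gave 1.17 to 1.56. For SRB4 the KCl arrays gave 1.81 and 1.42, and no other array gave less than 1.88. The heat arrays gave 2.44 and 2.69 for SRB4. For ACT1, heat gave 0.36 and 0.58 and KCl 0.40 and 0.52, within the 0.36 to 0.68 of the other arrays. The part of these measures in the results above was not tested.

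After return to rich medium the median of the transcripts went from below the untreated level to above it. At 15 min their median was -0.15 after heat and -0.18 after KCl, and at 45 min it was 0.36 and 0.21, with 37 and 29 of 42 above the untreated mean. The median of all genes on the same 45 min arrays was 0.02 and -0.07.

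**Figure D3:**
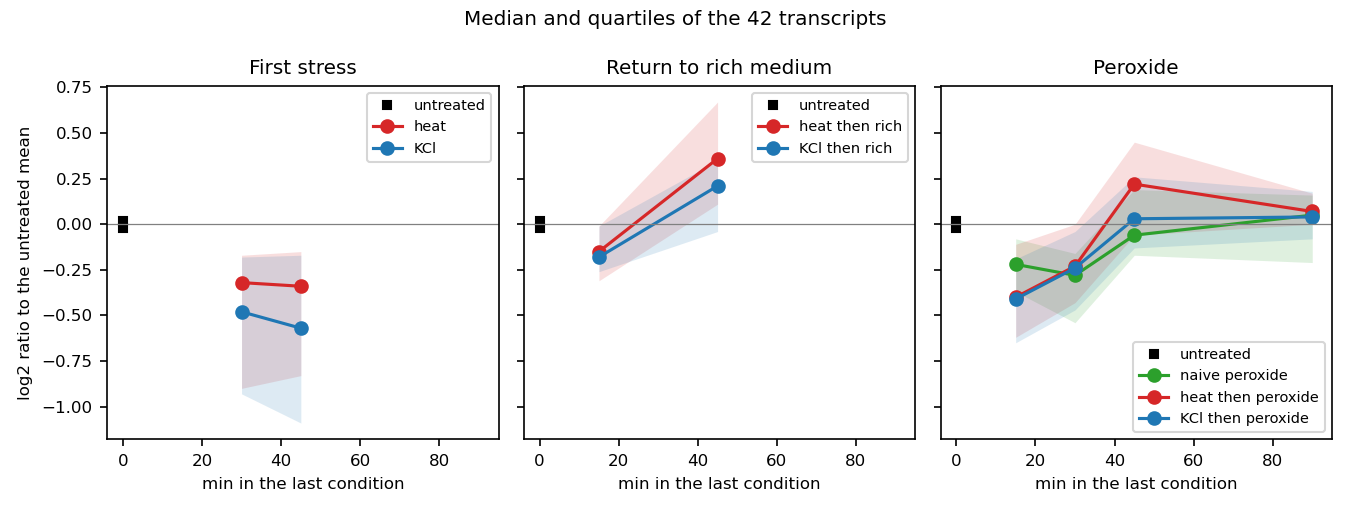
Median (points) and quartiles (shading) of the 42 log2 ratios to the untreated mean on each array against minutes in the last condition, for the first stress, the return to rich medium and peroxide. The medians lie at -0.32 to -0.57 in the first stress, rise from -0.15 and -0.18 to 0.36 and 0.21 in rich medium, and in peroxide lie below 0 at 15 and 30 min.

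CDC45, which joins the MCM ring to form the active helicase, stood at -0.15 and -0.21 at 15 min in rich medium after heat and after KCl. At 45 min it stood at 0.97 and 0.67, against 0.07 and -0.07 in the untreated pair. MCD1 read -0.37 and -0.17 at 15 min and 0.96 and 0.66 at 45 min. POL1 went from -0.23 and -0.80 to 0.86 and 0.43, POL30 from -0.17 and -0.24 to 0.67 and 0.35, and SMC3 from -0.28 and -0.26 to 0.79 and 0.34. In these 5 both arrays at 45 min lay above both untreated arrays, and the array after heat was the higher. ORC1 went from -0.69 and -0.80 to -0.27 and -0.05, and MCM7 from -0.28 and -0.32 to 0.06 and -0.23, so neither was above the untreated pair on both arrays.

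At 45 min, 29 of the 42 transcripts lay above both untreated arrays on both rich medium arrays, a pattern shown by 20.8% of all genes. They were all 5 of polymerase alpha-primase and CTF4 (which links that polymerase to the helicase), both of polymerase epsilon, all 3 of polymerase delta, 5 of 6 of the clamp and its loader, all 3 of RPA, RAD27 and the ligase gene CDC9, and all 3 of the cohesin ring. CDC45, PSF1 and PSF3 made up 3 of 5 in helicase activation. ORC, CDC6 and the MCM subunits stood apart, with 3 of 13 (ORC3, ORC5 and CDC6) against 26 of 29 among the rest, a grouping made after the values were seen. ORC6 was the only transcript below both untreated arrays.

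None of these differences from untreated cells at 45 min passed the test, which had 2 arrays a group and found 0% of all genes (0 of 5449; 393 genes and 15 of the 42 had an unadjusted p under 0.05). The largest were CDC45 at 0.82 ± 0.15 and MCD1 at 0.81 ± 0.15, each with an adjusted p of 0.465, and the median of the 42 was 0.28. The 95% intervals of those differences were 0.45 to 1.19 and 0.42 to 1.20 before any adjustment for the number of genes. PSF3, a GINS subunit, gave 0.76, PRI2 0.73, RAD27 0.62, CTF4 0.59 and SMC3 0.56. At 15 min, 20 of 42 lay below both untreated arrays, beside 34.9% of all genes, and 0 passed the test (0.697% of all genes in either direction; 1187 genes and 6 of the 42 had an unadjusted p under 0.05). Without the array at 15 min after heat, 2 were called.

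The rise from 15 to 45 min, tested in a contrast added to those planned, passed for 3 of the 42 and no transcript fell, beside 1.19% of all genes that rose. MCD1 rose by 1.08 ± 0.15 (adjusted p = 0.0443), CDC45 by 1.0 ± 0.15 (adjusted p = 0.0456) and RFA3, the small RPA subunit, by 0.74 ± 0.12 (adjusted p = 0.0497). The median difference was 0.40, and in 31 of 42 both arrays at 45 min lay above both at 15 min, beside 27.7% of all genes. POL1 at 1.16 ± 0.24 and POL2 at 1.0 ± 0.19 missed the threshold in that fit, which takes no account of the first stress that a 15 and a 45 min array share. With that history as a block, an alternative added after the data were seen, 12 of 42 rose and 0 fell, beside 3.93% of all genes that rose. POL1 (1.16 ± 0.10, adjusted p = 0.0198) and POL2 (1.0 ± 0.10, adjusted p = 0.0203) then passed beside CDC45, MCD1 and RFA3, as did ORC5, PSF3, DPB2, POL30, RFC5, RAD27 and SMC3. That fit takes part of its spread from the untreated pair, and with those arrays left out, 1 residual degree of freedom remained and 0 of the 42 and 0 of all genes passed. Of the 3 calls without the block, 0 were left without untreated array a, without untreated array b or without either 45 min array, and 11 were called without the 15 min array after heat.

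**Figure D4:**
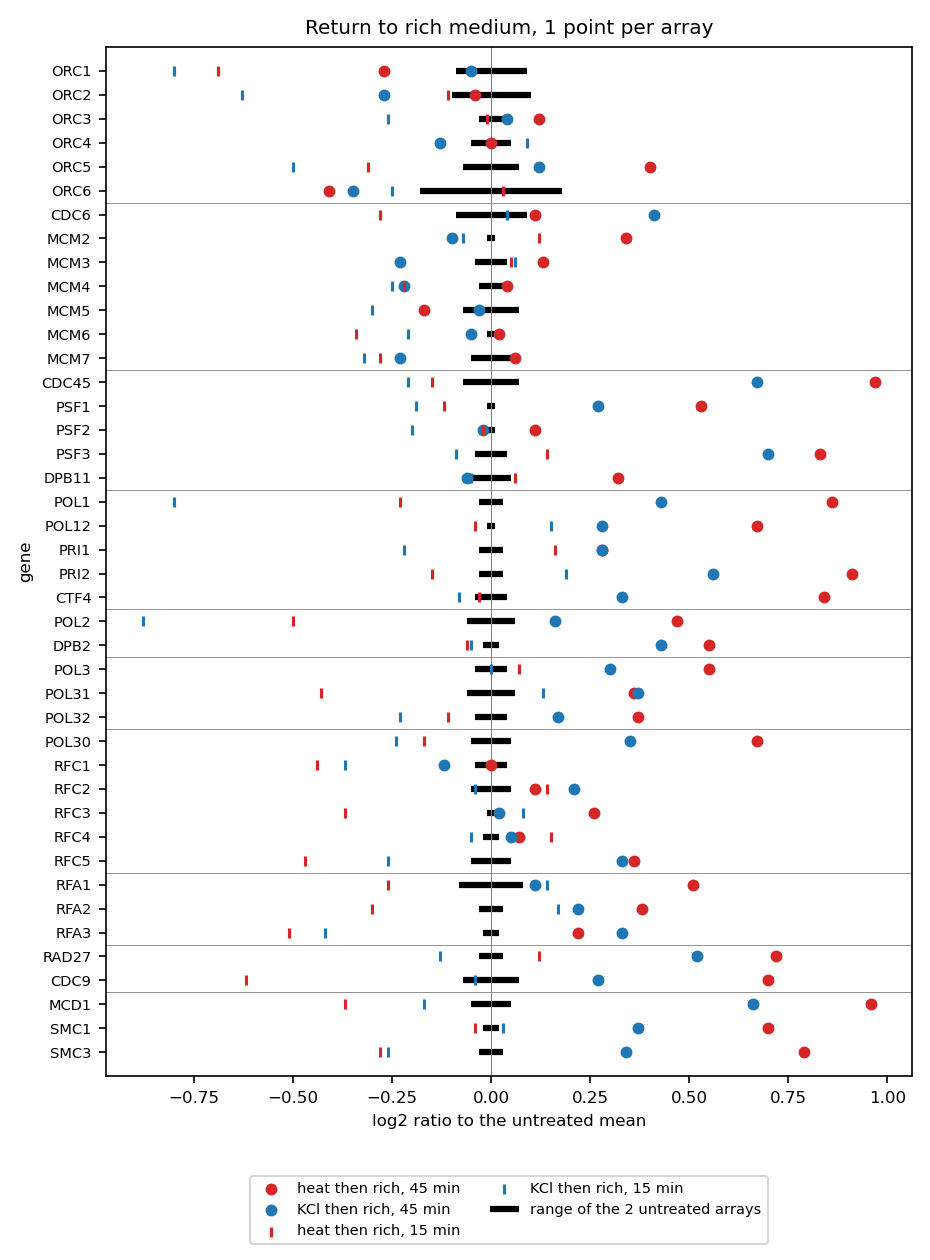
Log2 ratio to the untreated mean of each of the 42 transcripts after return to rich medium, 1 mark per array (bars at 15 min and circles at 45 min, red after heat and blue after KCl), with the range of the 2 untreated arrays in black. From CDC45 downwards most pairs of circles lie to the right of the black range, whereas those of the ORC and MCM transcripts lie around it.

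Against the first stress itself, rich medium gave higher levels for 10 of 42 after heat (12.2% of all genes were higher) and for 12 of 42 after KCl (13.6%). After heat the largest were POL1 at 1.88 ± 0.53 (adjusted p = 0.04), RAD27 at 1.87 ± 0.36 (adjusted p = 0.012), POL30 at 1.78 ± 0.39 (adjusted p = 0.0187) and POL12 at 1.49 ± 0.30 (adjusted p = 0.0141). After KCl they were SMC3 at 2.12 ± 0.39 (adjusted p = 0.00766), POL12 at 1.75 ± 0.30 (adjusted p = 0.00596), POL1 at 1.73 ± 0.53 (adjusted p = 0.0431) and MCM7 at 1.66 ± 0.20 (adjusted p = 0.00197). The others were SMC3, PRI2, POL3, POL32, MCM7 and MCM3 after heat, and CDC6, POL32, POL3, MCM4, MCM2, RFC4, ORC3 and RFC2 after KCl. None of the 42 was lower in rich medium than in the first stress by the test. The difference of these differences, heat minus KCl, passed for 0 of 42 and for 0.0551% of all genes (886 genes and 3 of the 42 had an unadjusted p under 0.05). Those 3 were MCM3 at 0.81, MCM7 at -0.81 and ORC1 at -1.05.

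The 2 arrays of each group here were taken at different times, and single arrays moved the counts. After heat, 0 were called without the heat array at 30 min or without the 45 min rich medium array, and 4 without the heat array at 45 min. After KCl, 4 were called without the 45 min rich medium array, 5 without the KCl array at 30 min and 7 without that at 45 min.

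In peroxide the median of the 42 transcripts began below the untreated level and ended close to it. The median of the 42 in naive peroxide was -0.22 at 15 min, -0.28 at 30 min, -0.06 at 45 min and 0.05 at 90 min. The heat-primed series ran through -0.40, -0.23, 0.22 and 0.07 and the KCl-primed one through -0.41, -0.24, 0.03 and 0.04. Each of the 3 histories served as 1 array of a time in the tests against untreated cells that follow.

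At 15 min of peroxide 8 of 42 fell and 0 rose, beside 3.93% of all genes that fell, and 26 of 42 lay below both untreated arrays on all 3 arrays, beside 28% of all genes. CDC6 stood at -1.32, -1.13 and -0.79 in naive, heat-primed and KCl-primed cells (-1.08 ± 0.27, adjusted p = 0.0302), the lowest difference of the set. MCM7 read -0.93, -0.70 and -1.06 (-0.90 ± 0.19, adjusted p = 0.0132), POL30 read -0.55, -0.65 and -1.23 (-0.81 ± 0.19, adjusted p = 0.0228), and CDC45 read -0.48, -0.67 and -0.97 (-0.71 ± 0.15, adjusted p = 0.0135). The KCl-primed array was the lowest for MCM7, POL30 and CDC45, and the highest for CDC6.

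SMC3, MCM6, POL12 and CTF4 were the others that fell at 15 min. MCD1 and POL1 spread too widely over the 3 histories to be called: MCD1 stood at -0.54, -0.85 and -1.82 and POL1 at -0.30, -0.57 and -1.57, the KCl-primed array again lowest. In KCl-primed cells MCD1 had been at -1.12 at the end of the KCl step and was at -0.17 on the rich medium array of the same age. No call was left at 15 min without either untreated array, 5 were left without the KCl-primed array of that time, and 19 were called without the naive one.

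At 30 min 5 of 42 fell and 0 rose, beside 9.08% of all genes that fell, and 25 of 42 lay below both untreated arrays on all 3 arrays, beside 33.8% of all genes. The share of the 42 that fell by the test was thus little above that of all genes. ORC1 stood at -0.66, -0.74 and -0.93 in naive, heat-primed and KCl-primed cells (-0.78 ± 0.18, adjusted p = 0.0136), and MCM7 at -0.90, -0.45 and -0.91 (-0.76 ± 0.19, adjusted p = 0.0225). RFC1, the large subunit of the clamp loader, differed by -0.46 ± 0.11 (adjusted p = 0.0171) and POL12 by -0.45 ± 0.12 (adjusted p = 0.0277). The remaining call was ORC4 at -0.31. ORC1 was at -0.12 in naive cells at 15 min but already at -0.75 and -0.81 in the primed ones. No call was left without either untreated array, 1 was left without the KCl-primed array at 30 min and 2 without the naive one, and 8, 9 and 12 were called without the heat-primed, naive and KCl-primed arrays at 15 min.

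At 45 min the median of the 42 transcripts lay close to the untreated level. PRI2 stood at 0.42, 0.77 and 0.66 in naive, heat-primed and KCl-primed cells and was the 1 of 42 that rose (0.62 ± 0.11, adjusted p = 0.0116), beside 3.52% of all genes that rose. No transcript fell by the test, and the median difference was 0.06. The share of the 42 that rose by the test was thus a little under that of all genes. On all 3 arrays 16 of 42 lay above both untreated arrays, beside 26.9% of all genes, and 11 lay below them, a share a little under the 30% of all genes. Of those 11, 8 were among the 13 ORC, CDC6 and MCM transcripts, a grouping made after the values were seen. CDC45 stood at 0.35, 0.79 and 0.48 and MCD1 at 0.20, 0.97 and 0.45, in each case lowest in naive and highest in heat-primed cells, and neither was called. ORC1 was still below the untreated pair at -0.54, -0.53 and -0.61, and MCM7 at -0.55, -0.22 and -0.35. The count was 0 without either untreated array or the KCl-primed array at 45 min, 2 without the heat-primed array at 30 min, and 4, 5 and 6 without the heat-primed, KCl-primed and naive arrays at 15 min. The median of 0.06 turned to -0.01 without the heat-primed array at 45 min.

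The step from 30 to 45 min of peroxide, a contrast added to those planned, raised 9 of 42 transcripts and lowered 0, beside 1.01% of all genes that rose. MCD1 rose by 1.20 ± 0.27 (adjusted p = 0.0458), POL30 by 0.91 ± 0.17 (adjusted p = 0.0164), POL12 by 0.82 ± 0.11 (adjusted p = 0.00251) and CDC45 by 0.80 ± 0.14 (adjusted p = 0.00874). SMC3, DPB2, CDC9, PRI2 and CTF4 rose as well, between 0.52 and 0.76, so polymerase alpha-primase with CTF4 gave 3 of the 9. In 24 of 42 every 45 min array lay above every 30 min array, beside 9.8% of all genes. No ORC or MCM transcript rose by the test, and the median was 0.10 over ORC and 0.16 over CDC6 with the MCM genes. Even so, ORC1, ORC2, ORC3, MCM5 and MCM6 were among the 24 without overlap. They were 5 of the 13 ORC, CDC6 and MCM transcripts, against 19 of 29 among the rest, a grouping made after the values were seen. The count was 3 without the heat-primed array at 45 min, 4 without the KCl-primed array at 30 min and 5 without the KCl-primed array at 45 min.

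At 90 min the median of the transcripts was back near the untreated level. None of the 42 passed the test, as against 0.128% of all genes (444 genes and 4 of the 42 had an unadjusted p under 0.05), and the median difference was 0.03. PSF3 was highest at 0.52 (0.53, 0.59 and 0.45 in naive, heat-primed and KCl-primed cells), and ORC2 was lowest at -0.28. POL1 stood at 0.19, 0.17 and 0.15, POL30 at 0.12, 0.16 and 0.14, CDC45 at 0.17, 0.23 and 0.22 and MCD1 at 0.14, 0.25 and 0.28, so the 3 histories were close together. MCM7 was more spread, at -0.39 in naive cells and 0.15 and 0.03 in the primed ones. The 7 helicase loading transcripts, MCM7 among them, were all still below the untreated level in naive cells, between -0.47 and -0.17. Their median was -0.39 there, 0.03 in heat-primed cells and -0.09 in KCl-primed cells.

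RFA1 and RFA2, whose products coat single-stranded DNA as part of RPA, stood above the untreated level in naive peroxide. RFA1, the large subunit, stood at 0.20, 0.64, 0.85 and 0.18 over the naive series, and RFA2, the middle one, at 0.24, 0.64, 0.80 and 0.37. Both were above the untreated pair throughout the naive series, and their values are given here because they were seen to move the other way. RFA3, the small subunit, read 0.03, 0.22, 0.52 and 0.34 over the same arrays. In heat-primed cells RFA1 began at -0.66 and RFA2 at -0.44, then rose to 0.78 and 0.64 at 45 min. In KCl-primed cells RFA1 read 0.24, 0.38, 0.68 and 0.02. Outside RPA, PSF2 lay above both untreated arrays on all 3 peroxide arrays at 15 and at 30 min, and below both at 45 min. ORC5, ORC6 and RFC4 also lay above both at 15 min. In all, 4 of the 42 lay above both at 15 min and 3 at 30 min, beside 17.3% and 24.8% of all genes.

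Naive peroxide at 30 and 45 min as 1 group, fitted with the heat and KCl arrays, gave 1 rise and 3 falls among the 42, beside 11.2% of all genes that rose and 7.18% that fell. The share of the 42 that fell was thus close to that of all genes, and the share that rose was below it. The rise was RFA2 at 0.72 ± 0.13 (adjusted p = 0.0138). MCM7 (-0.73 ± 0.17, adjusted p = 0.0286), ORC1 (-0.60 ± 0.15, adjusted p = 0.0367) and ORC2 (-0.49 ± 0.13, adjusted p = 0.0454) were the falls, and the median was -0.19. Of these 4 calls 0 were left without untreated array a, untreated array b or the naive array at 30 min and 1 without that at 45 min, while 7 were made without either KCl array.

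**Figure D5:**
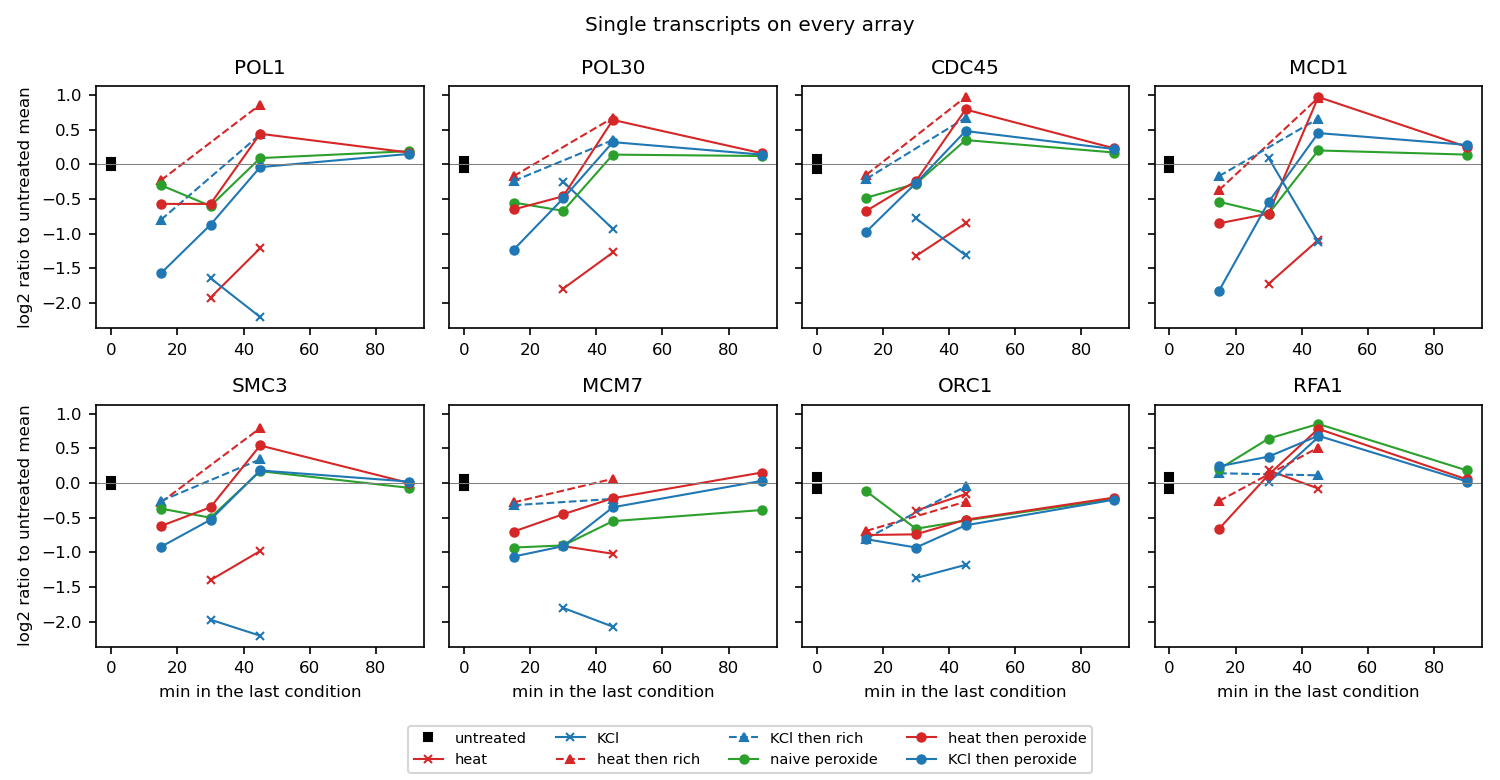
Log2 ratio to the untreated mean against minutes in the last condition for 8 transcripts, 1 mark per array (squares untreated, crosses heat or KCl, triangles rich medium, circles peroxide; red after heat, blue after KCl, green naive). In rich medium and in peroxide, but not in heat or KCl, POL1, POL30, CDC45, MCD1 and SMC3 climb through 0 by 45 min or close to it. MCM7 and ORC1 stay lower there, and RFA1 reaches 0.85 in naive peroxide.

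No difference between primed and naive cells passed the test for any of the 42. In the heat-primed against the naive series, with time as a term, 0 passed, beside 3.34% of all genes, while 10 had an unadjusted p under 0.05 and the smallest adjusted p was 0.051 (1691 of all genes had an unadjusted p under 0.05). That value was RFA2, at -0.44 ± 0.10 with a 95% interval of -0.68 to -0.20. RFA3 gave -0.46, and CDC6 at 0.46, PSF3 at 0.42, MCM7 at 0.39 and MCM2 at 0.35 were the highest. The median was 0.06. The number called was 1 without the naive array at 15 min, 2 without the naive or the heat-primed array at 90 min and 5 without the KCl-primed array at 15 min.

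For KCl-primed against naive cells 0 of 42 passed, beside 0.147% of all genes (1019 genes and 2 of the 42 had an unadjusted p under 0.05), with a median of 0.00. CDC6 gave the largest difference, 0.56 ± 0.12 (adjusted p = 0.105), and POL1 the lowest, -0.42.

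Peroxide was also set against rich medium after the same first stress, at 15 and 45 min with time as a term. None of the 42 passed after heat or after KCl, beside 0.165% of all genes in each (230 and 400 genes, and 1 and 5 of the 42, had an unadjusted p under 0.05). The medians were -0.18 after heat and -0.21 after KCl, where those of all genes were -0.04 and 0.02. After heat CDC6 was lowest at -0.50 ± 0.23, and after KCl MCD1 was lowest at -0.93 ± 0.34 with POL2 at -0.68 ± 0.19. The difference between both histories passed for 0 of 42 and 0% of all genes (18 genes and 0 of the 42 had an unadjusted p under 0.05).

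Other genes of replication and of the cell cycle, taken from lists of known genes, were read in the same fits. Of 25 other replication genes 10 fell and 2 rose in heat and 11 fell and 2 rose in KCl, with a median of -0.35 in each. Over all genes 22.4% fell and 27.5% rose in heat, and 26% fell and 30.2% rose in KCl. RNH201 and RNH202, subunits of ribonuclease H2, gave -1.66 and -1.27 in heat. RNH203, the other subunit, and RIF1, which regulates telomeres and origin timing, gave -1.64 and -1.42 in KCl. Of 21 cohesin partners and other SMC complex genes 7 fell in heat and 10 fell and 2 rose in KCl, with PDS5, a cohesin partner, at -1.15 and -1.27.

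The G1/S list, which holds the regulators and cyclins that act when replication genes are switched on, fell for 8 of 15 in heat and 9 of 15 in KCl, where 22.4% and 26% of all genes fell. NRM1, a repressor of that gene programme, gave -2.08 and -2.56, and the S phase cyclin gene CLB6 gave -2.08 and -1.70. At 15 min of peroxide 10 of 15 fell, where 3.93% of all genes did, with CLN1, a G1 cyclin, at -2.27 and YOX1, a homeobox repressor, at -1.86. From 30 to 45 min of peroxide 8 of 15 rose, where 1.01% of all genes did, with CLB6 at 1.69 and TOS4 at 1.40. At 45 min in rich medium their median was 0.43 and 0 passed.

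Among 9 genes of deoxynucleotide synthesis, RNR1, the large subunit of ribonucleotide reductase, fell by 1.86 in heat and by 2.14 in KCl, while RNR3, its damage-inducible counterpart, rose by 1.35 and 1.42. The median over the 9 was 0.03 and -0.12 at 30 and 45 min of heat, and -0.08 and -0.22 at those times of KCl. Of 8 core histone genes 7 fell in heat (median -0.79) and 1 in KCl (median -0.09), where 22.4% and 26% of all genes fell. Lower in heat than in KCl were 7 of 8 (15.2% of all genes were). Of 12 genes of the G2 and M phases 8 fell in heat and 9 in KCl, beside those same shares of all genes, and in the naive peroxide contrast 10 of 12 fell (7.18% of all genes did). At 45 min in rich medium the G2 and M list had a median of -0.27 and the M/G1 list one of -0.40, both below that of all genes (-0.02), where the 42 transcripts had 0.28. None of the members of those lists passed the test there.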

How the data were processed

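RNA of 22 samples was measured on Affymetrix arrays, with cDNA primed by poly(T) per the labels' protocols. Per the submitters' processing notes the authors used RMA, and the deposited values are log2 levels of probe sets. RMA equalises arrays, so a change in total mRNA per cell is not visible. The authors' second table of log2 fold changes (5900 of 10928 probe sets) served only as an alternative. Of the probe sets, 5498 named 1 yeast gene in the array annotation. The brightest was kept for each of 47 genes with several, leaving 5449 genes. Left out were 1746 probe sets naming a gene outside the yeast gene table, 3683 outside the annotation and 1 naming several genes. Background is the 95th percentile of those 1746. The number of arrays limits the precision.

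The log2 values of all 5449 genes went into linear models in limma 3.58.1 under R 4.3.3 (lmFit, eBayes), with p-values adjusted by Benjamini-Hochberg and a threshold of 0.05. Fits held 8 arrays for the first stress (30 and 45 min, 1 level per group), 6 for rich medium by time, 14 for peroxide by time, 12 for primed against naive series, 8 for peroxide against rich medium, and 8 for rich medium against the first stress. Comparisons that use the untreated arrays share them. The contrasts of heat against KCl, 45 against 15 or 30 min, and both differences of differences were added later. The fits were tested on simulated data.

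All 42 members could be named. Full statistics went to at most the 4 largest rises and 4 largest falls past the threshold in a comparison, values to members by role and values on every array to the 2 largest differences in heat, KCl, rich medium at 45 min and peroxide at 30 min. Other lists show the 2 largest differences. RFA1 and other exceptions were chosen after their values were seen. The members and lists were chosen with earlier results of these data known. Of the core histone list, HHF2 is not reported here. Promoter motifs were not analysed here. The settings tried were a further quantile normalization, a shift of arrays to 1 median, the dimmest 25% of genes left out, trend and robust settings, a 2-fold minimum, the authors' fold table, other sets of arrays, each array left out and, added after the data were seen, history or time as a block.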

Additional observations from a re-analysis of the deposited data

How the results depend on the processing

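A minimum of 2-fold left 7 of 42 transcripts in heat, 10 in KCl, 0 in naive peroxide at 30 and 45 min, 1 in heat against KCl, 1 in rich medium from 15 to 45 min, 1, 0 and 0 in peroxide at 15, 30 and 45 min, 1 in peroxide from 30 to 45 min and 7 in rich medium against KCl, since most differences are under 1 log2 unit. Another quantile normalization gave 5 from 15 to 45 min in rich medium, 2 at 45 min of peroxide and 4 in heat-primed against naive cells. Leaving out the dimmest 25% of genes, which removed 1 of the 42, gave 6, 3 and 5 there, and trend and robust settings gave 7 from 15 to 45 min in rich medium and 1 in heat-primed against naive cells. When naive peroxide arrays at 30 and 45 min stood in for the 45 min level, 4 were called and the median was -0.19 in place of 0.06. With each array left out that median ran from -0.01, without the heat-primed array at 45 min, to 0.11, without the naive one. The stand-in arrays had medians of -0.28 (naive, 30 min) and -0.06 (naive, 45 min). The primed arrays at 45 min, which they left out, had 0.22 after heat and 0.03 after KCl. What made the histories differ was not tested. Blocks added after the data were seen gave 12 from 15 to 45 min in rich medium (history), 9 from 30 to 45 min of peroxide (history) and 8 in heat against KCl (time), and 0, 7 and 3 with the untreated arrays also left out, which leaves fewer arrays for the spread.

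With each array left out in turn, the calls ranged from 8 to 18 in heat, 13 to 25 in KCl, 0 to 7 in naive peroxide, 6 to 14 in heat against KCl, 0 to 2 and 0 to 0 in rich medium at 15 and 45 min, and 0 to 11 from 15 to 45 min. They ranged from 0 to 19, 0 to 12, 0 to 6 and 0 to 0 in peroxide at 15, 30, 45 and 90 min, 3 to 10 from 30 to 45 min, and 0 to 5 in heat-primed against naive cells. For rich medium against heat and against KCl they ranged from 0 to 11 and 4 to 14. KCl-primed against naive cells, peroxide against rich medium and both differences of differences stayed at 0. Of 1595 values for single transcripts over all alternatives, 322 lost their call and 0 changed sign. The labels give no replicate numbers shared between groups, so none was used as a block.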
